A study of Mus musculus with 4 samples.

Results

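Ribosome biogenesis factors are the proteins that make ribosomes but are not part of the finished particle. A list of 49 such genes was compared between control and Bap1 conditional knockout mesenchymal cells of skeletal muscle. Members are taken by symbol and not by a threshold on a value, but the list was drawn up with earlier results of these data known, so its counts describe the list and are no independent evidence of its direction. All 49 were found among the 20027 genes of the expression table. They were sorted by known role into 7 stages of ribosome assembly. All 49 reached 1 RPKM (reads per kilobase of transcript, scaled to the library's total reads) in at least 2 of the 4 libraries, and so all of them were among the 11197 genes tested.

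The cells were fibro-adipogenic progenitors (FAPs), the connective-tissue progenitors that lie between muscle fibers. The study prepared them from hind limb muscle of C57BL/6 mice in the second week after birth by sorting cells that carried Sca1 and lacked CD31, CD45 and Vcam1, and RNA was taken without culture. The labels name 2 WT and 2 cKO libraries, each from a male, and the titles number the animals. The cKO mice were Prx1-Cre;Bap1 f/f, in which Cre acts in limb mesenchyme, so that other mesenchymal cells of the limb are targeted too. The WT titles name Prx1-Cre while the study describes floxed controls, so whether these controls carry Cre, a floxed allele or both is unclear. Bap1, a nuclear deubiquitinase, lay at 14.0 and 12.9 RPKM in WT replicates 1 and 2 and at 14.2 and 15.3 RPKM in cKO replicates 1 and 2. Its difference did not pass (log2 fold change 0.13, SE 0.129, limma adjusted p = 0.443) and turned negative under 3 other scalings of the libraries. An RPKM over a whole transcript does not show the loss of single exons, so this value does not check the labels.

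Depth was estimated from the values of genes taken to have no reads, under an assumption given with the processing. It was 46.5 and 89.1 M reads in WT replicates 1 and 2 and 90.4 and 41.4 M reads in cKO replicates 1 and 2. Of 10 markers of FAPs, 8 were lower in the cKO libraries (7 under quantile scaling), with a summed level of 29197 to 31049 RPKM in WT and 13043 to 14525 RPKM in cKO. Most of the WT sum was Col3a1 (16567 and 15075 RPKM, against 6057 and 5733 in cKO). Dcn went the other way (2594 and 2637 against 2973 and 3120 RPKM) without passing, and 1 marker was called higher under quantile and under cyclic loess scaling. All 10 chondrocyte markers were higher, from a summed 27.0 to 35.3 RPKM to a summed 1960 to 2287 RPKM, and all 6 tenocyte markers were higher (177 to 190 against 1382 to 1641 RPKM). Of 7 smooth muscle and pericyte markers 6 were higher (45.9 to 68.1 against 313 to 424 RPKM), as were all 5 tested of 6 Schwann cell markers (13.6 to 16.1 against 33.8 to 42.4 RPKM), 2 of the 5 under each other scaling. All 5 tested of 8 myofiber markers were lower (60.9 to 82.6 against 20.6 to 22.6 RPKM). Summed levels of 6 muscle stem cell markers were 39.0 to 39.2 RPKM in WT and 50.2 to 64.8 RPKM in cKO, with 1 of 3 tested higher (Itga7, 9.38 and 11.7 against 29.6 and 42.3 RPKM), 1 lower (Vcam1, 27.7 and 25 against 18.3 and 20.5 RPKM) and Pax7 under 0.1 RPKM in every library. Those of 6 endothelial markers (26.8 to 28.9 against 26.3 to 29.1 RPKM) and 6 hematopoietic markers (5.59 to 6.82 against 6.76 to 10.4 RPKM) overlapped between the groups, and Ptprc, which encodes CD45, was at most 0.254 RPKM. Within these lists 1 of 4 tested endothelial genes was higher (Cdh5, 1.43 and 3.68 against 6.45 and 11.3 RPKM), 1 of 2 tested hematopoietic genes was higher (Cd14, 1.13 and 1.17 against 2.44 and 3.95 RPKM), and most of the endothelial sum was Tek. The markers that differed did so between the same groups of libraries that are compared below, and their part in those results was not tested. In such bulk samples, fewer cells of a type and less RNA per cell cannot be told apart.

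A ribosome begins in the nucleolus, where RNA polymerase I transcribes a long precursor of the ribosomal RNAs. The small subunit processome, a large assembly built around the U3 small nucleolar RNA (snoRNA), folds and cuts the part that becomes the small subunit, while small nucleolar ribonucleoproteins (snoRNPs) modify bases and other factors build the large subunit. Cells that grow fast use this machinery heavily, and the transcription factor Myc is known to drive many of its genes.

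Of the 49 factors, 42 were higher in the cKO libraries and none was lower. Among all 11197 tested genes, 35.9% were higher and 6.48% were lower by the same test (limma on log2(RPKM + 1), adjusted p under 0.05). No factor was lower at an unadjusted p under 0.05 either. The median log2 fold change over the 49 was 0.93, against 0.27 over all tested genes, which places the median factor 0.66 above the median gene. Both cKO libraries stood above both WT libraries for 48 factors, and for 56.8% of all tested genes. A passing change of at least 2-fold was seen for 17 factors and for 7.85% of all tested genes. On the deposited scale factors were called at each of the 7 stages, while under median-ratio scaling no box C/D protein was.

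The median gene itself was higher in the cKO libraries on the deposited scale, so the count depends on how the libraries are scaled. Under median-ratio, quantile and cyclic loess scaling the median over all tested genes was 0.01, -0.02 and 0.00. The factors called higher were then 28, 31 and 33 of 49, against 15.8%, 15.9% and 16.8% of all tested genes. No factor was lower under any of them. Over all tested genes the split of 4016 higher and 726 lower became 1769 and 1527, 1777 and 1818, and 1885 and 1710. All 3 scalings kept the call of the same 27 factors. The share of all tested genes called in all 3 was not counted, but it cannot exceed the 15.8% of median-ratio scaling. On the deposited scale the median log2 fold change was also taken with 1 library left out. Without WT replicate 1 it was 0.95 for the factors and 0.25 for all tested genes. Without WT replicate 2 it was 0.78 and 0.29. It was 1.01 and 0.24 without cKO replicate 1, and 0.80 and 0.31 without cKO replicate 2.

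**Figure D1:**
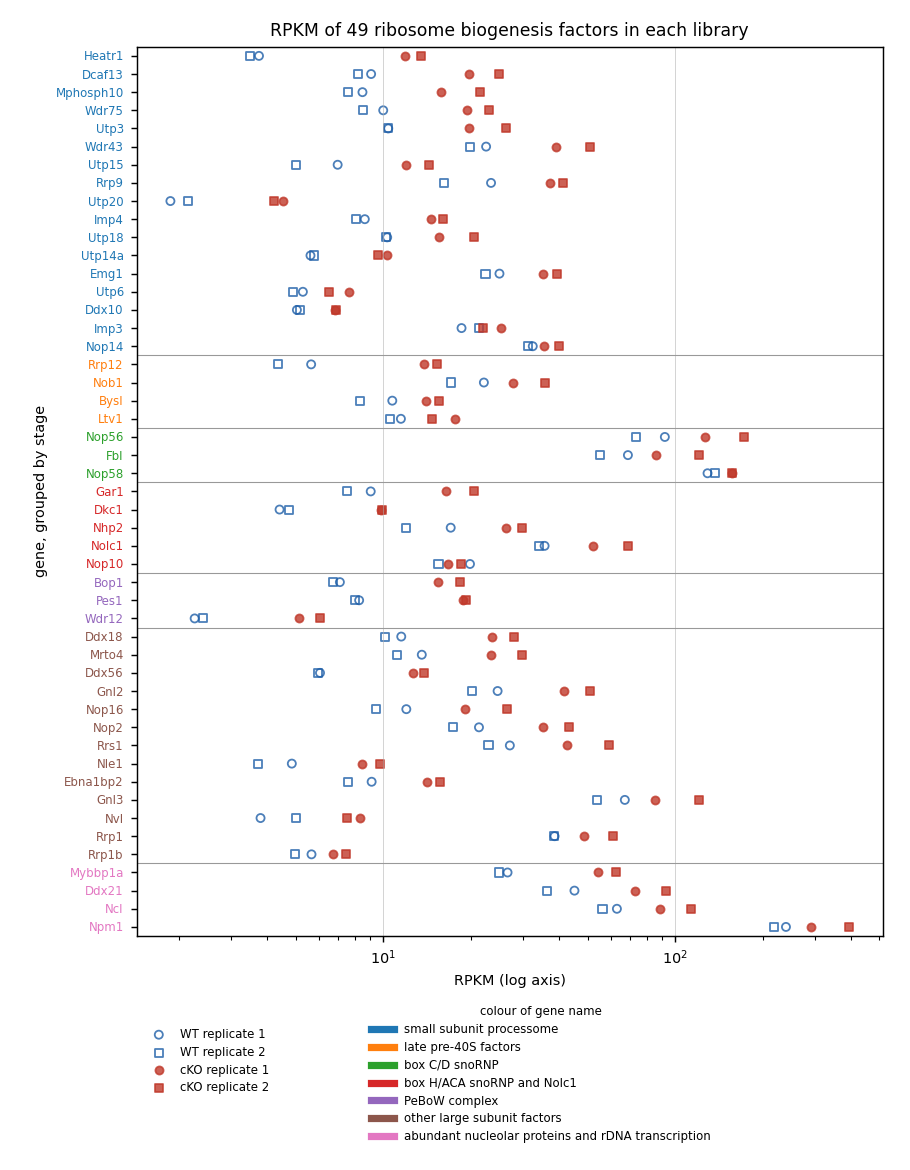
RPKM (log axis) of each of the 49 factors in the 4 libraries, with WT as open blue and cKO as filled red symbols, circles for replicate 1 and squares for replicate 2, and genes grouped by stage of assembly. The cKO symbols lie to the right of both WT symbols in 48 of 49 rows, and Nop10 is the exception.

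**Figure D2:**
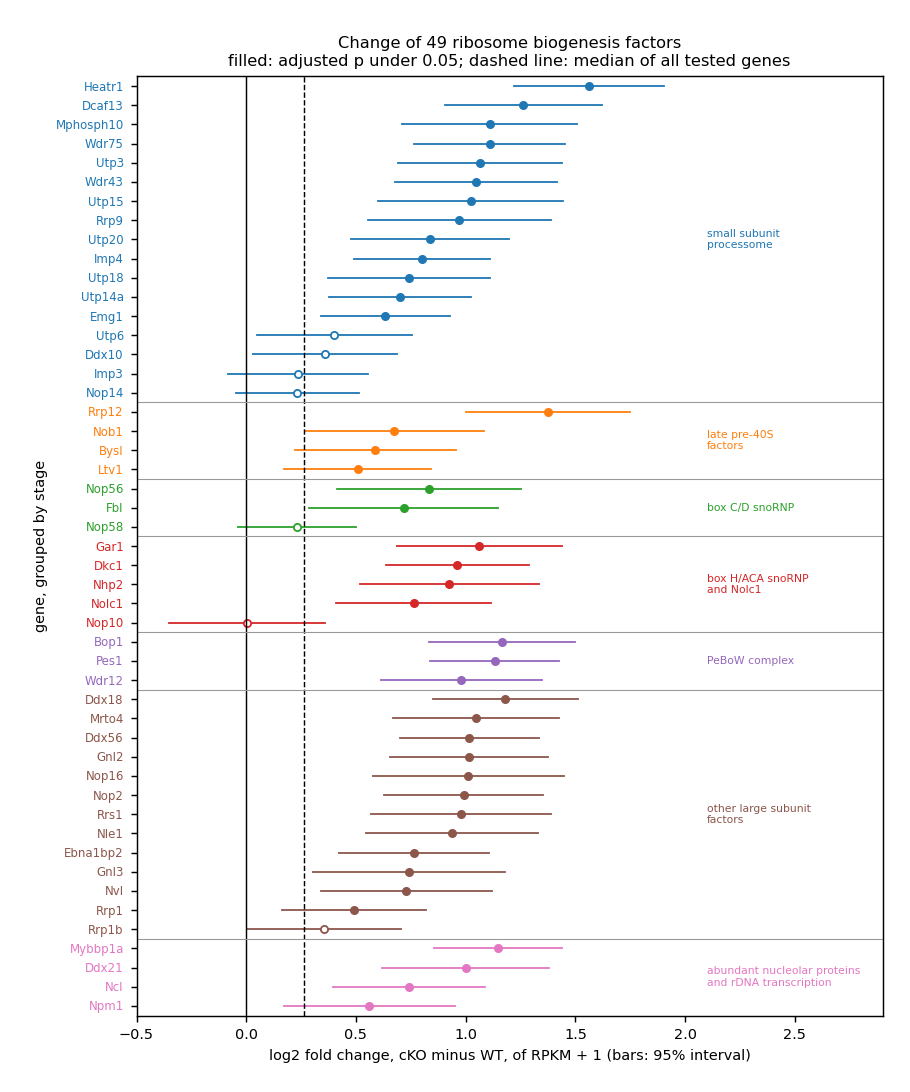
Log2 fold change (cKO minus WT, of RPKM + 1) of the 49 factors with 95% intervals, grouped by stage, filled where the adjusted p is under 0.05, with the median of all tested genes (0.27) as a dashed line. The 42 filled points all lie right of 0, and the 7 open points are Utp6, Ddx10, Imp3, Nop14, Nop58, Nop10 and Rrp1b, of which Imp3, Nop14 and Nop10 turn negative under all 3 other scalings and Nop58 under 2.

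The small subunit processome carried the largest single change. Of its 17 listed members 13 were higher, with a median log2 fold change of 0.84, and 11 remained higher under each of the other scalings. Heatr1 (NM_144835, chromosome 13 from 12395027 to 12440289, plus strand, GRCm38), the counterpart of yeast Utp10 and a component needed for both transcription and early cutting of the precursor, lay at 3.75 and 3.49 RPKM in the WT libraries and at 11.8 and 13.5 RPKM in the cKO libraries. Both cKO values were more than 3 times either WT value. The log2 fold change was 1.56 (SE 0.146, adjusted p = 0.000530), and it was 1.30, 1.26 and 1.29 under the other scalings.

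Wdr75, like Heatr1 a member of the subcomplex that binds the nascent precursor first, lay at 9.98 and 8.52 RPKM in WT and at 19.3 and 23.0 RPKM in cKO (2.16-fold, 95% interval 1.70 to 2.74, adjusted p = 0.00186). The other listed members of that subcomplex, Utp15 (2.03-fold, adjusted p = 0.00449) and Wdr43 (2.07-fold, adjusted p = 0.00269), rose by a similar factor. The 4 listed members of this subcomplex thus all passed, and none of the 95% intervals of their log2 fold changes reached 0.

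Dcaf13, whose yeast counterpart Sof1 is a processome component, had the next largest change of the group, from 9.07 and 8.19 RPKM to 19.7 and 24.8 RPKM (2.40-fold, adjusted p = 0.00129). Rrp9, the protein that marks the U3 snoRNP, was 1.96-fold higher (95% interval 1.47 to 2.62, adjusted p = 0.00522). Utp20, a very large scaffold protein, rose from the lowest level of any factor, 1.86 and 2.14 RPKM, to 4.53 and 4.2 RPKM (adjusted p = 0.00534). The remaining processome members that passed were Mphosph10, Utp3, Imp4, Utp18, Utp14a and Emg1, with log2 fold changes from 0.63 for Emg1, a methyltransferase of the small subunit RNA, to 1.11 for Mphosph10. Utp18 and Emg1 did not pass under any of the other scalings, and Emg1 did not pass without WT replicate 2.

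Not all partners within the processome passed. Mphosph10, Imp3 and Imp4 form a complex in which Imp3 and Imp4 each bind Mphosph10. Imp4 lay at 8.63 and 8.04 RPKM in WT and at 14.6 and 16.0 RPKM in cKO (adjusted p = 0.00366), and Mphosph10 lay at 8.47 and 7.57 RPKM in WT and at 15.8 and 21.5 RPKM in cKO (adjusted p = 0.00285). Imp3 lay at 18.5 and 21.2 RPKM in WT and at 25.3 and 21.9 RPKM in cKO, with a log2 fold change of 0.23 (95% interval -0.08 to 0.55, adjusted p = 0.203). Its highest WT value was close below its lowest cKO value, whereas both partners had clear gaps between the groups.

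Nop14, a core protein of the processome, lay at 32.5 and 31.4 RPKM in WT and at 35.6 and 39.9 RPKM in cKO (log2 fold change 0.23, 95% interval -0.05 to 0.51, adjusted p = 0.157). Utp6, a member of another subcomplex of the processome, lay at 5.30 and 4.92 RPKM in WT and at 7.65 and 6.51 RPKM in cKO (log2 fold change 0.40, adjusted p = 0.0670). Ddx10, a putative RNA helicase, lay at 5.05 and 5.19 RPKM in WT and at 6.84 and 6.86 RPKM in cKO (log2 fold change 0.36, adjusted p = 0.0747). In each of these 3 genes the groups did not overlap. The 95% intervals of Utp6 (0.05 to 0.75) and Ddx10 (0.03 to 0.69) lay above 0. Their unadjusted limma p-values were 0.0311 and 0.0356, so they failed only after adjustment.

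The 4 listed factors that act later on the precursor of the small subunit were all higher, with a median log2 fold change of 0.63, but only Rrp12 passed under each of the other scalings. Rrp12, known from yeast for the export of the particles, lay at 5.65 and 4.34 RPKM in WT and at 13.8 and 15.2 RPKM in cKO (2.59-fold, 95% interval 2.00 to 3.36, adjusted p = 0.00112). It was the only one of the 4 with a change of more than 2-fold. Nob1, the nuclease that makes the final cut of the small subunit RNA, was 1.60-fold higher (adjusted p = 0.0182). Bysl was 1.5-fold higher (adjusted p = 0.0204), and Ltv1, which leaves the particle shortly before the last steps, 1.42-fold higher (adjusted p = 0.0250). The calls of Nob1 and Bysl were lost without WT replicate 2, in which both genes were lowest, and that of Ltv1 without either WT library and without cKO replicate 1.

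The snoRNP proteins come in 2 kinds of particle. Box C/D particles methylate riboses with the enzyme fibrillarin (Fbl), and Nop56 and Nop58 form their paired scaffold. Fbl lay at 68.8 and 55.3 RPKM in WT and at 86.1 and 121 RPKM in cKO (log2 fold change 0.72, SE 0.185, adjusted p = 0.0181). Nop56 lay at 92 and 73.4 RPKM in WT and at 126 and 172 RPKM in cKO (log2 fold change 0.83, SE 0.180, adjusted p = 0.00947). In both genes the WT replicates differed from each other, and the cKO replicates differed more, though the groups stayed apart.

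Nop58 (NM_018868) lay at 129 and 136 RPKM in WT and at 156 and 156 RPKM in cKO. Its cKO replicates were nearly equal, and it was the second most abundant factor after Npm1. The difference did not pass (log2 fold change 0.23, 95% interval -0.04 to 0.50, adjusted p = 0.143). Under the other scalings Fbl passed in none and Nop56 in 2 of 3, so that no box C/D protein was called in all of them, and the call of Fbl was also lost without WT replicate 2.

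Box H/ACA particles convert uridine to pseudouridine with the enzyme dyskerin (Dkc1), to which Nop10, Nhp2 and Gar1 are bound. Dkc1 lay at 4.41 and 4.74 RPKM in WT and at 9.80 and 9.89 RPKM in cKO (1.95-fold, 95% interval 1.55 to 2.44, adjusted p = 0.00239). Gar1 lay at 9.04 and 7.50 RPKM in WT and at 16.3 and 20.4 RPKM in cKO (2.09-fold, 95% interval 1.61 to 2.71, adjusted p = 0.00273). Nhp2 lay at 17.0 and 11.9 RPKM in WT and at 26.4 and 29.7 RPKM in cKO (1.90-fold, 95% interval 1.43 to 2.52, adjusted p = 0.00583). All 3 genes were close to 2-fold higher, with both cKO libraries above both WT libraries, and the call of Nhp2 was lost under quantile scaling.

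Nop10 (NM_025403, chromosome 2 from 112261926 to 112263269, plus strand, GRCm38), a small protein that links dyskerin to Nhp2, was the only factor whose groups overlapped. It lay at 19.8 and 15.4 RPKM in WT and at 16.6 and 18.4 RPKM in cKO, so that the cKO values fell between the WT values. The log2 fold change was 0.00 (95% interval -0.35 to 0.36, adjusted p = 0.991), and it was -0.29, -0.35 and -0.37 under the other scalings. Nolc1, a nucleolar protein that carries both kinds of snoRNP, lay at 35.6 and 34.1 RPKM in WT and at 52.1 and 68.6 RPKM in cKO (log2 fold change 0.76, adjusted p = 0.00674), a call that held under 1 of the 3 other scalings.

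A ratio of RPKM between genes of the same library does not change when all values of that library are multiplied by a constant. The pairs that follow were chosen after the values were seen and carry no test. The ratio of Nop10 to Dkc1 was 4.49 and 3.26 in WT and 1.70 and 1.86 in cKO. That of Nop10 to Nhp2 was 1.16 and 1.29 in WT and 0.631 and 0.620 in cKO, and that of Nop10 to Gar1 was 2.19 and 2.06 against 1.02 and 0.903. All 3 ratios were lower in both cKO libraries, at 0.452 to 0.509 of the WT mean. The ratio of Gar1 to Dkc1, by contrast, was 2.05 and 1.58 in WT and 1.67 and 2.07 in cKO, which overlap.

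Ratios of other partners gave both patterns. Nop58 to Nop56 was 1.40 and 1.85 in WT and 1.23 and 0.908 in cKO, and Imp3 to Imp4 was 2.14 and 2.64 in WT and 1.73 and 1.37 in cKO. The groups did not overlap in either pair, but the 2 cKO libraries lay further apart than in the Nop10 ratios. For the PeBoW complex of the large subunit path, Bop1 to Pes1 was 0.859 and 0.844 in WT and 0.821 and 0.951 in cKO, and Wdr12 to Pes1 was 0.273 and 0.302 in WT and 0.274 and 0.314 in cKO. Both of these ratios overlapped between the groups.

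**Figure D3:**
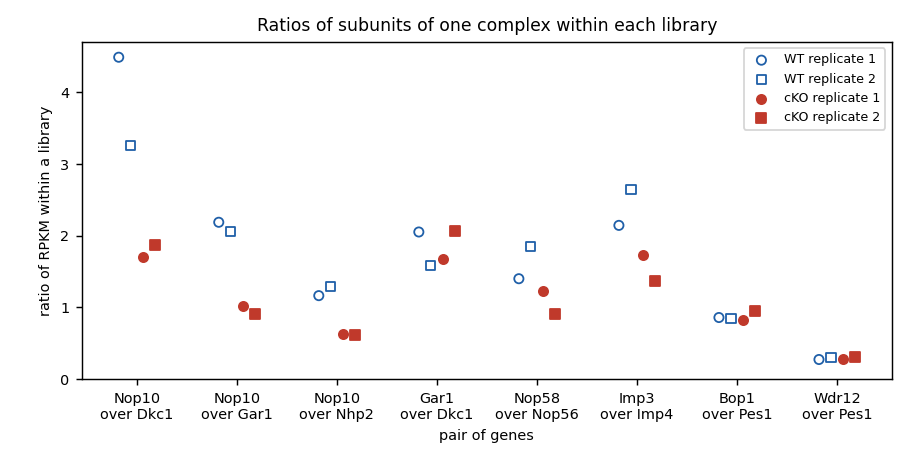
Ratio of RPKM between genes of 1 complex within each of the 4 libraries (linear axis from 0), WT as open blue and cKO as filled red symbols, circles for replicate 1 and squares for replicate 2. The 3 ratios of Nop10 to its partners are lower in both cKO libraries, as are Nop58 to Nop56 and Imp3 to Imp4, while Gar1 to Dkc1, Bop1 to Pes1 and Wdr12 to Pes1 overlap.

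The PeBoW complex, made of Pes1, Bop1 and Wdr12, is required for maturation of the large subunit RNAs. All 3 genes were higher, with a median log2 fold change of 1.13, and all 3 were called under each of the other scalings. Pes1 (NM_022889, chromosome 11 from 3963975 to 3980004, plus strand, GRCm38) lay at 8.25 and 7.98 RPKM in WT and at 18.7 and 19.2 RPKM in cKO (2.19-fold, 95% interval 1.79 to 2.69, adjusted p = 0.000944). Bop1 lay at 7.09 and 6.73 RPKM in WT and at 15.4 and 18.3 RPKM in cKO (2.25-fold, 95% interval 1.78 to 2.83, adjusted p = 0.00135), and Wdr12 at 2.25 and 2.41 RPKM in WT and at 5.14 and 6.04 RPKM in cKO (1.97-fold, 95% interval 1.53 to 2.54, adjusted p = 0.00329). The replicates of each group were close together for Pes1, and the intervals of the 3 genes overlapped widely.

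Of the other 13 large subunit factors 12 were higher, with a median log2 fold change of 0.98, and 8 of them were called under all of the other scalings. Ddx18, an RNA helicase, lay at 11.5 and 10.1 RPKM in WT and at 23.6 and 28.0 RPKM in cKO (2.27-fold, adjusted p = 0.00127). Ddx56, another helicase, lay at 6.06 and 5.96 RPKM in WT and at 12.6 and 13.8 RPKM in cKO (2.02-fold, adjusted p = 0.00186). The WT replicates of Ddx56 were nearly equal, and both cKO values were more than 2 times as high.

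Several enzymes and placeholders of the large subunit path had changes near 2-fold. They included Nop2, a methyltransferase of the large subunit RNA (1.99-fold, adjusted p = 0.00301), and the GTPase Gnl2 (2.02-fold, adjusted p = 0.00277). Mrto4, which holds the place of a stalk protein on the young particle, was 2.07-fold higher (adjusted p = 0.00294). Rrs1, which helps bring the 5S RNA into the particle in yeast, was 1.97-fold higher (adjusted p = 0.00482), Nop16 2.02-fold (adjusted p = 0.00531) and Nle1 1.92-fold (adjusted p = 0.00476). Smaller changes were those of Ebna1bp2 (1.70-fold), the AAA ATPase Nvl (1.66-fold), nucleostemin (Gnl3, 1.67-fold) and Rrp1 (1.40-fold), none of which was called in all 3 other scalings. The call of Gnl3 was lost without WT replicate 2 and that of Nvl without WT replicate 1.

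Rrp1 and Rrp1b are paralogs related to a single yeast protein. Rrp1 lay at 38.6 and 38.5 RPKM in WT and at 48.5 and 61.2 RPKM in cKO (log2 fold change 0.49, adjusted p = 0.0261), a call lost without either WT library and without cKO replicate 2. Rrp1b lay at 5.67 and 4.96 RPKM in WT and at 6.70 and 7.45 RPKM in cKO (log2 fold change 0.36, 95% interval 0.01 to 0.71, adjusted p = 0.0936). The ratio of Rrp1b to Rrp1 overlapped between the groups (0.147 and 0.129 in WT, 0.138 and 0.122 in cKO). Reads shared between paralogs could be assigned to either, and how they were counted is not given in the sources used here.

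Over both groups of small subunit factors, 17 of 21 were higher with a median log2 fold change of 0.80, and over both groups of large subunit factors 15 of 16 were higher with a median of 0.99. The difference between the subunits was not tested.

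The abundant nucleolar proteins were all higher on the deposited scale, 4 of 4 with a median log2 fold change of 0.87. Nucleophosmin (Npm1), a chaperone that fills the outer zone of the nucleolus, had the highest level of all factors, 239 and 218 RPKM in WT and 290.5 and 393 RPKM in cKO. Its log2 fold change of 0.56 (SE 0.167, adjusted p = 0.0305) was the smallest of the 4, and the call was lost without either WT library, without cKO replicate 2 and under median-ratio scaling. Nucleolin (Ncl) was 1.67-fold higher (95% interval 1.31 to 2.12, adjusted p = 0.00708), a call also lost under median-ratio scaling.

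Mybbp1a (NM_016776, chromosome 11 from 72441355 to 72451768, plus strand, GRCm38), a nucleolar protein tied to both transcription and processing of the precursor, lay at 26.6 and 24.8 RPKM in WT and at 54.2 and 62.4 RPKM in cKO. The replicates of each group were close together, and its p was the second smallest of all factors (log2 fold change 1.15, SE 0.125, adjusted p = 0.000904). Ddx21, a helicase that acts in transcription by RNA polymerase I and in processing, was 2.00-fold higher (95% interval 1.54 to 2.60, adjusted p = 0.00344). Both were called under all of the other scalings.

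As a sum, the factors stood above both WT libraries in both cKO libraries, while the sums of ribosomal protein genes overlapped. Summed over the 49 genes, the level was 1269 and 1133 RPKM in WT and 1806 and 2235 RPKM in cKO. Summed over 78 cytosolic ribosomal protein genes it was 40492 and 38238 RPKM in WT and 39782 and 43524 RPKM in cKO, which overlap. The 49 factors thus stood at 3.13% and 2.96% of the ribosomal protein sum in WT and at 4.54% and 5.13% in cKO, and without Npm1 at 2.54%, 2.39%, 3.81% and 4.23%. As a ratio within a library, this share is not moved by a constant factor on its values.

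None of the 78 ribosomal protein genes passed in either direction (1 higher and none lower at an unadjusted p under 0.05), with log2 fold changes from -0.18 to 0.37 and a median of 0.10, below the 0.27 of all tested genes. Under the other scalings at most 2 were higher and 1 was lower. Rpl27 came closest, at 179 and 165 RPKM in WT and 209 and 236 RPKM in cKO (adjusted p = 0.0527). The 90 tested ribosome biogenesis factors outside the 49 included 78 that were higher and none that was lower on the deposited scale (82 and 0 at an unadjusted p under 0.05), and their median was 0.81. They were higher in 53, 54 and 58 cases and lower in 1, 2 and 2 under the other scalings. The leading ones by p were Rrp15 (log2 fold change 1.27), Pwp2 (1.42), Nol6 (1.15) and Tma16 (1.41).

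**Figure D4:**
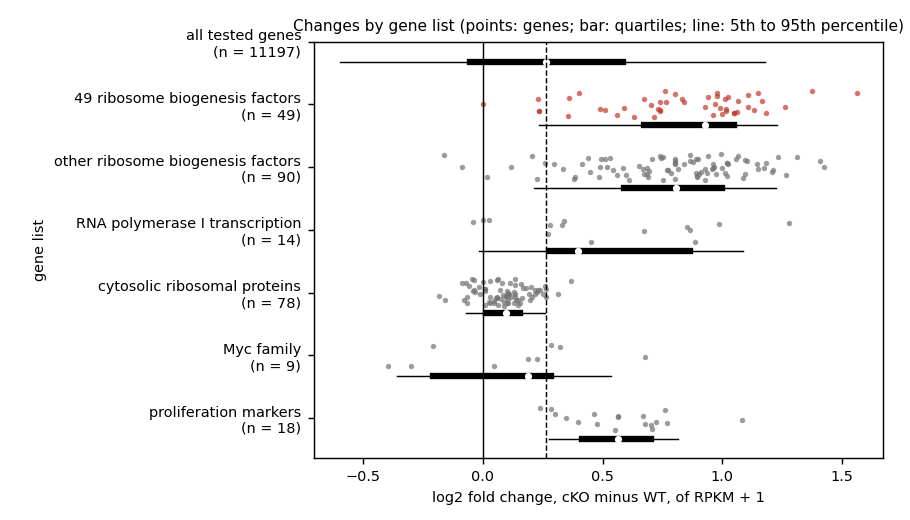
Log2 fold change (cKO minus WT, of RPKM + 1) by gene list, each point 1 gene, with bars for the quartiles, lines for the 5th to 95th percentile and a white dot for the median, the dashed line marking the median of all tested genes (0.27). The medians of the 49 factors (0.93) and the 90 other factors (0.81) lie right of the dashed line, as do 45 of the 49 points but not Imp3, Nop14, Nop58 and Nop10, and the median of the 78 ribosomal protein genes (0.10) lies near 0, where its sign depends on the scaling (-0.21, 0.06 and 0.06 under the others).

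Transcription by RNA polymerase I precedes all of the steps above. Of 14 tested genes of its machinery 7 were higher and none lower (9 and 0 at an unadjusted p under 0.05), with a median log2 fold change of 0.40, and 5 were higher under each of the other scalings. Rrn3, the initiation factor that joins the polymerase to the promoter, lay at 8.66 and 8.05 RPKM in WT and at 17.2 and 17.8 RPKM in cKO (adjusted p = 0.00172). The largest subunit, Polr1a, lay at 3.26 and 3.89 RPKM in WT and at 6.99 and 7.66 RPKM in cKO (adjusted p = 0.00474), and Cd3eap and Polr1b, other subunits, had log2 fold changes of 1.28 and 0.85. Ubtf, which keeps ribosomal DNA in an open state, lay at 20.6 and 19.7 RPKM in WT and at 25 and 24.4 RPKM in cKO and did not pass (adjusted p = 0.0920), with a sign that turned negative under the other scalings.

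Myc lay at 192 and 182 RPKM in WT and at 177 and 211 RPKM in cKO. The groups overlapped and the difference did not pass (log2 fold change 0.05, 95% interval -0.26 to 0.36, adjusted p = 0.797), with a negative sign under the other scalings. Mycn was low in all libraries (1.21 and 1.98 RPKM in WT, 2.99 and 1.58 RPKM in cKO, adjusted p = 0.327). Of 9 tested genes of the Myc network only Max, the dimer partner of Myc, passed, at 22.6 and 25.1 RPKM in WT and 35.9 and 41.5 RPKM in cKO (adjusted p = 0.00611), and it did not pass under the other scalings. The next by p were Mxi1, Mxd4 and Mnt, with log2 fold changes of -0.40, -0.30 and 0.29, and Mxi1 was called lower under each of the other scalings. The count for this network was 1 higher and none lower on the deposited scale, against 0 higher and 2, 3 and 3 lower under median-ratio, quantile and cyclic loess scaling. Proliferation markers were higher in 12 of 18 cases (median 0.56), led by Mcm6 (log2 fold change 1.08), Mcm3 (0.77), Top2a (0.76) and Mcm5 (0.72), and in 4 or 5 under the other scalings, and the call of Top2a was lost without WT replicate 1. Between the groups these markers moved in the direction of the factors, and their part was not tested. All of them but Pcna were higher in WT replicate 2 than in replicate 1, while 41 of 49 factors were lower. Between cKO replicates 1 and 2 they went both ways (Mcm6 17.7 and 17.1, Mcm3 7.91 and 8.65 RPKM).

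The factors also varied together between replicates. Within WT, 41 of 49 were lower in replicate 2 than in replicate 1, against 42.4% of all tested genes, with a median difference of -0.15 log2 units. Within cKO, 43 of 49 were higher in replicate 2 than in replicate 1, against 43.2% of all tested genes, with a median difference of 0.20. In both groups the factors were thus higher in the library of lower depth, and the part of depth in this was not tested. This order was not particular to the 49. Summed levels of the 90 other factors were 1084 and 988 RPKM in WT and 1641 and 1906 RPKM in cKO. Those of the ribosomal protein genes were 40492 and 38238 RPKM in WT and 39782 and 43524 RPKM in cKO. Relative to the median gene of the same library, the median factor stood at 0.76 and 0.52 log2 units in WT and at 1.07 and 1.41 in cKO. The groups stayed apart on that scale, though the cKO replicates lay about as far from each other as the nearest WT and cKO libraries did.

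Levels of single factors spanned from Utp20 to Npm1 and the change bore little relation to them. Across the 49 genes, which are not independent replicates and share 4 libraries, Spearman's rho between the change and the mean level was -0.16, and between the change and transcript length 0.03. The estimated number of reads behind a factor was at least 402 in every library. Among all tested genes the share called higher grew with level, from 26.8% in the lowest of 4 equal bins to 44.5% in the highest. Of the 49 factors 20 lay in the highest bin, where 17 were called, and 20 in the one below, where 19 were called against 42.2% of all tested genes there.

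**Figure D5:**
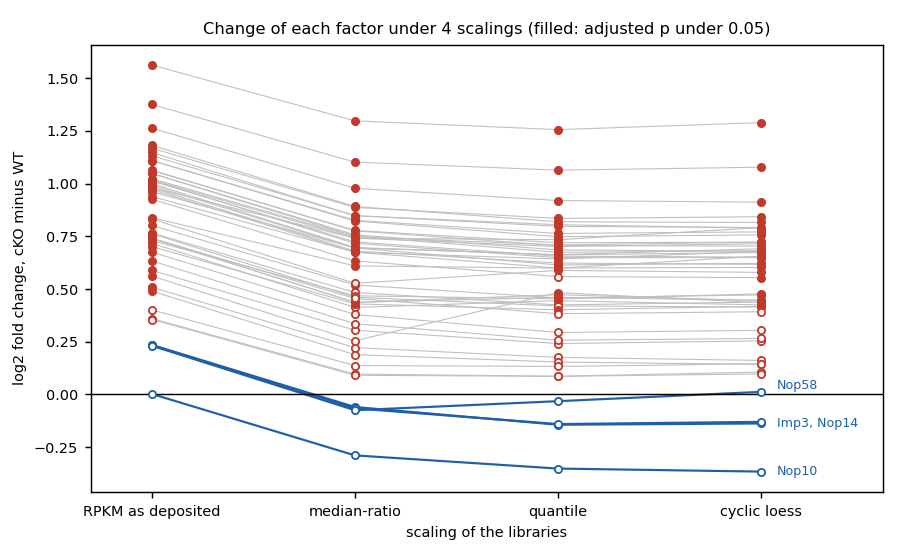
Log2 fold change (cKO minus WT) of each of the 49 factors on the deposited scale and under 3 other scalings of the libraries, filled where the adjusted p is under 0.05, with Imp3, Nop14, Nop58 and Nop10 in blue. The number of filled points is 42, 28, 31 and 33 from left to right, Imp3, Nop14 and Nop10 lie below 0 in all 3 other scalings and Nop58 in 2, and Heatr1 is the highest point in each.

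Features of the genes that the choice of list did not use were also counted. In the GENCODE annotation of GRCm38, 6 of the 49 factors (12.2%) hold a snoRNA gene on the same strand inside the gene, against 1.80% of tested genes. These hosts were Wdr43, Nop56, Nop58, Dkc1, Gnl3 and Ncl, with 19 snoRNA genes in all, and their median log2 fold change was 0.79 against 0.94 for the other factors. A protein-coding gene that starts on the opposite strand within 1000 bases was found for 14 of the 49 (28.6%), against 10.7% of tested genes. Of 13 such neighbours that were tested 6 were higher and none lower, with a median of 0.43, a share near the 35.9% of all tested genes. Under median-ratio, quantile and cyclic loess scaling 2, 2 and 2 were higher and 1, 3 and 2 lower. Slc25a32, which shares its start region with Dcaf13, lay at 3.97 and 3.72 RPKM in WT and at 7.72 and 8.47 RPKM in cKO (adjusted p = 0.00335), while Mcee, which adjoins Mphosph10, lay at 8.82 and 7.82 RPKM in WT and at 6.61 and 6.35 RPKM in cKO (adjusted p = 0.113). These pairs were picked after their values were seen. Whether the counting used strand is not given in the sources used here. Values of factors whose exons overlap a gene on the other strand are therefore less certain. These factors are Pes1, Bop1, Wdr12, Mybbp1a, Imp4, Utp14a, Nop14, Emg1, Bysl, Nop56, Dkc1, Nhp2, Rrp1b, Gnl2, Gnl3, Nle1 and Nvl.

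Promoter windows of 300 bases (250 before to 50 after the start) were available from RefSeq for 41 of the 49 factors. The E-box CACGTG, the site bound by Myc with Max and by related factors, was searched on both strands with 3 other short motifs, none of which contains another. By gene, counting a match in any of its windows, it was found for 9 of 41 factors (22%) and 16 of 71 other biogenesis factors (22.5%). It was found for 6 of 57 ribosomal protein genes (10.5%) and 12.1% of 8778 tested genes. Counted by single window it was in 7.15% of all 32851, which is not a like measure. The same holds for the shares of all windows given below. All 9 factors with the motif were higher on the deposited scale, as were 26 of 32 without it, and the medians of the log2 fold change were 0.94 and 0.80. Over all tested genes with a window, 38.1% of those with the motif and 35.1% of those without it were higher, with medians of 0.30 and 0.26. The ETS motif CCGGAAGT was found for 23 of 71 other biogenesis factors (32.4%) and 11 of 57 ribosomal protein genes (19.3%). Among the 49 factors it was found in 8 of 41 (19.5%), against 9.20% of tested genes and 3.89% of all windows. The YY1 motif AAGATGGC was found in 1 of 41 (2.44%), against 5.58% and 2.75%, and CTCGCGAG in none of 41, against 2.22% and 0.919%. A match describes the letters in the window and is neither a site of binding nor a cause.

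The windows of the 4 factors of smallest p that hold CACGTG are given 5′ to 3′ on the gene's strand (all plus, RefSeq, GRCm38.p6), with the motif in capitals, since they show where it lies. They cover chr11:72441077-72441376 for Mybbp1a, chr11:3963725-3964024 for Pes1, chr17:71615965-71616264 for Wdr43 and chr6:125131633-125131932 for Nop2. Each holds 1 match, whose first base lies 40, 2 and 17 bases after the start in Mybbp1a, Pes1 and Wdr43 and at -60, before the start, in Nop2.
Mybbp1a: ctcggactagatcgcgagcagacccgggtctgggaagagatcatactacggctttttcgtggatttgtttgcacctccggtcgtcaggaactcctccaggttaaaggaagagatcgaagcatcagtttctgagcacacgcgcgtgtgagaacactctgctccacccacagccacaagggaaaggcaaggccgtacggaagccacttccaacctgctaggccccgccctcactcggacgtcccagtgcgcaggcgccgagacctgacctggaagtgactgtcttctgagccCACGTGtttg
Pes1: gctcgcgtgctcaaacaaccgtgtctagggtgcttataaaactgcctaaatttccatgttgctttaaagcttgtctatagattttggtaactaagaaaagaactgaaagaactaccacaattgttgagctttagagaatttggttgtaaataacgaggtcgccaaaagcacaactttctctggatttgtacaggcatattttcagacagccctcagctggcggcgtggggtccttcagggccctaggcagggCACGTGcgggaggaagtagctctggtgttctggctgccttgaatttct
Wdr43: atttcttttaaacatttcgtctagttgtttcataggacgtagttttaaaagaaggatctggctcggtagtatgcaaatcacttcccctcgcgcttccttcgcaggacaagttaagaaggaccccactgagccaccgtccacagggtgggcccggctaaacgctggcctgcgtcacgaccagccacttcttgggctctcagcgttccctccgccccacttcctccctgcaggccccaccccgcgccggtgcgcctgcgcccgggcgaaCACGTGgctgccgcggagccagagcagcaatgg
Nop2: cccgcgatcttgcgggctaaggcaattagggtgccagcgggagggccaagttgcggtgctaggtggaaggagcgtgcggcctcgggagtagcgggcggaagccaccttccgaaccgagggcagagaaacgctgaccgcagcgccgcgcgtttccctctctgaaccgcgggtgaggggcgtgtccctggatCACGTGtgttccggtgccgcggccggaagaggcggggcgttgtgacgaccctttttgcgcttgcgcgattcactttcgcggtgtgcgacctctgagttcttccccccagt
By the RefSeq start of the window, the motif lies close after the start in Pes1 and Wdr43, which were 2.19-fold and 2.07-fold higher in the cKO libraries. Mybbp1a and Nop2, with the motif at 40 and -60, were 2.22-fold and 1.99-fold higher. A link between position and change was not tested. Heatr1, the factor with the largest change, has no CACGTG in its window.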

How the data were processed

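RNA-seq of sorted FAPs gave 4 libraries, 2 labelled WT and 2 labelled cKO. The authors deposited RPKM values for 20027 RefSeq genes in a single table. Builds mm9 and mm10 stand in the submitters' processing notes, as do bedtools, edgeR and TopHat2 (version 2.0.9), with no step given for any. The gene annotation, the counting rule and the use of strand are not given in the sources used here. RPKM divides by transcript length and library total, so a change in abundant genes moves all others.

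Values were analysed as log2(RPKM + 1), which understates changes of low genes, with limma 3.58.1 in R 4.3.3 (lmFit and eBayes with trend, cKO minus WT, all 4 libraries, two-sided, Benjamini-Hochberg over the 11197 genes with at least 1 RPKM in 2 libraries, threshold 0.05). An exact permutation test of 2 against 2 cannot go below p = 0.333 and was not used. P-values measure the spread between these libraries, which the titles number as separate animals. Whole reads were not recovered from the RPKM values, so count models were left out. Library depth came from the floor values of 362 olfactory receptor genes taken to have no reads. The value of 1 read was assumed to be 2.5 times that floor. Depths and estimated read numbers rest on this assumption. Read numbers and the relation to transcript length also use GENCODE transcript lengths, which may differ from those behind the RPKM values. Alternatives were pseudocounts of 0.1 and 0.5, no filter, a filter at 5 RPKM, 3 other scalings, eBayes without trend or robust, a replicate block, other thresholds and leaving out each library. Promoter windows came from RefSeq (GRCm38.p6) and gene positions from GENCODE. The code was tested on simulated data.

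The 49 genes, the stages and all other lists were chosen with earlier results of these data known. Values in every library are given for the 10 factors of smallest p, those that did not pass, the snoRNP and PeBoW proteins and the 3 of highest level, and for a few others as examples. From the other lists the up to 4 genes of smallest p are named, with Bap1, Myc, Mycn, Polr1a and Ubtf. Markers are given by list.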

Additional observations from a re-analysis of the deposited data

How the results depend on the processing

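Calls of 72 values and counts were recomputed under 17 alternatives. The 42 factors called higher stayed 42 with pseudocounts of 0.1 and 0.5 and with eBayes without trend or robust, and were 41 of 48 tested with a filter at 5 RPKM and 34 with no filter, where the median factor stood 0.88 above the median gene (20027 genes tested). Leaving out 1 library gave 34 to 41 factors, 2386 to 4044 genes higher and 390 to 1258 genes lower. At the adjusted p of 1e-05 named in the study's methods, 0 factors, 0 of the other biogenesis factors, 5 genes higher and 0 genes lower passed. With a minimum fold of 2, 17 factors, 22 other factors, 879 genes higher and 168 lower passed. Under median-ratio, quantile and cyclic loess scaling, 1769, 1777 and 1885 genes were higher and 1527, 1818 and 1710 lower, which follows from the median gene moving to 0.

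Log2 fold changes that turned negative, none of which had passed, were, under median-ratio scaling, Imp3 -0.0593, Nop14 -0.0658, Nop58 -0.0746, Nop10 -0.289, Bap1 -0.156, Myc -0.258 and Ubtf -0.0143. Under quantile scaling they were Imp3 -0.143, Nop14 -0.140, Nop58 -0.0318, Nop10 -0.351, Bap1 -0.222, Myc -0.115 and Ubtf -0.0954, and under cyclic loess Imp3 -0.137, Nop14 -0.130, Nop10 -0.366, Bap1 -0.221, Myc -0.132 and Ubtf -0.0918. Without 1 library, Nop10 ranged from -0.167 to 0.172 and Myc from -0.0790 to 0.176. The cause of the loss of single calls under an alternative was not tested.

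The libraries share replicate numbers 1 and 2. With a replicate block 42 factors, 3552 genes higher and 731 lower passed. Deviations of same-numbered libraries correlated at -0.304 over 11197 genes. This value cannot show whether the numbers pair the libraries, because the libraries of lower depth carry different numbers. A block with crossed numbers, added after the data were seen, gave 45 factors, 4807 genes higher and 1088 lower. That block joins the libraries of lower depth, WT replicate 1 and cKO replicate 2.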
